A study of Mus musculus with 23 samples.

Results

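The TSC22 domain family comprises 4 genes in the mouse, Tsc22d1, Tsc22d2, Tsc22d3 and Tsc22d4, and all 4 were found among the 55487 rows of the count table by their Ensembl identifiers. They were measured by RNA-seq in 23 libraries of primary embryonic fibroblasts (MEFs) from FVB/NJ mice, isolated from mid-gestation embryos and incubated for 5 h with solvent (vehicle) or with the synthetic glucocorticoid dexamethasone (Dex) at 10 nM. The fibroblasts were homozygous for 1 of 4 forms of the glucocorticoid receptor (GR): the unmodified receptor (GRwt/wt), a receptor whose DNA-binding domain carries threonine instead of alanine at its dimer interface (GRD/D), a receptor with alanine instead of isoleucine in its ligand-binding domain (GRL/L), and a receptor with both substitutions (GRD+L/D+L, the double mutant). Each of the 8 groups held 3 libraries except GRD/D vehicle with 2. The L and D+L alleles had been made by genome editing in zygotes heterozygous for D, and every culture within a genotype was derived from its own mouse. All fibroblasts kept an altered or unaltered receptor gene, so no group was a receptor knockout.

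Proteins of this family share a conserved segment, the TSC box, followed by a leucine zipper through which they form dimers, and most members are made in short and long forms from different promoters. Tsc22d3 encodes the glucocorticoid-induced leucine zipper (GILZ), a widely used marker of GR activity that can bind NF-kappaB, AP-1, Raf and Ras proteins and that accounts for part of the anti-inflammatory action of glucocorticoids. Tsc22d1 was first isolated as a transcript stimulated by TGF-beta, Tsc22d4 has been linked to insulin and lipid metabolism in the liver, and the long proteins of Tsc22d1, Tsc22d2 and Tsc22d4 associate with WNK kinases and NRBP pseudokinases, which regulate cell volume.

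The genes lie on different chromosomes of GRCm38. Tsc22d1 (ENSMUSG00000022010) is at chr14:76414961-76507765 on the plus strand with 16 annotated transcripts, and Tsc22d2 (ENSMUSG00000027806) is at chr3:58414715-58466783 on the plus strand with 4. Tsc22d3 (ENSMUSG00000031431) is at chrX:140539528-140600659 on the minus strand with 6 transcripts, and Tsc22d4 (ENSMUSG00000029723) is at chr5:137745730-137768450 on the plus strand with 9. No member overlaps another annotated gene, so reads of a member cannot belong to an overlapping or antisense partner in that annotation. The 120 coding bases of Tsc22d3 whose encoded amino acids best matched the other members are shown, with their counterparts in those genes. They are given because they define the family and because shared sequence could in principle move reads between members. The stretches are written 5′ to 3′ from GENCODE M21 transcripts, with the bases that are identical in all 4 genes in capitals.
Tsc22d1: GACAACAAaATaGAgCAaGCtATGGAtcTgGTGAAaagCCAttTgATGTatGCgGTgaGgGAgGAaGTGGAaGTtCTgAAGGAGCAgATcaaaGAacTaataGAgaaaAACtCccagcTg
Tsc22d2: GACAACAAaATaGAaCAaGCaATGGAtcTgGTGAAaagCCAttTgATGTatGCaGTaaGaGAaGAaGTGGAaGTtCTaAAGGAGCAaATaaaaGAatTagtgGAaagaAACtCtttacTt
Tsc22d3: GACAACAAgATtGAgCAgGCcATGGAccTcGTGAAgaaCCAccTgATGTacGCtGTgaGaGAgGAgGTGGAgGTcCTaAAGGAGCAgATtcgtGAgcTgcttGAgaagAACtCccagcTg
Tsc22d4: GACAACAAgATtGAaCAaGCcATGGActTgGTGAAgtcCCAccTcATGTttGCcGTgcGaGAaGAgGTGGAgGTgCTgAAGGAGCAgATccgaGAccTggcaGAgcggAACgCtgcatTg

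These stretches come from protein-coding exons. In Tsc22d1 the stretch spans exons 2 and 3 of transcript Tsc22d1-202 (chr14:76505274-76505297 and chr14:76506417-76506512), and in Tsc22d2 exons 3 and 4 of Tsc22d2-201 (chr3:58459359-58459382 and chr3:58460008-58460103). In Tsc22d3 it spans exons 3 and 4 of Tsc22d3-203 (chrX:140542105-140542128 and chrX:140541012-140541107), and in Tsc22d4 exons 4 and 5 of Tsc22d4-202 (chr5:137758709-137758732 and chr5:137759067-137759162). In every member the exon border falls at the same place in the stretch. Of its 120 bases, 73 were identical in all 4 genes. Tsc22d1 and Tsc22d2 were the most alike pair (101 of 120 bases, 84.2%), and Tsc22d3 shared 94 bases with Tsc22d1, 92 with Tsc22d4 and 84 with Tsc22d2. The longest run of identical letters between any transcripts of 2 members was 32 bases, between Tsc22d1 and Tsc22d2, and the longest run between Tsc22d3 and any other member was 16 bases. Only uniquely mapped reads were counted.

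Tsc22d3 has 3 RefSeq start windows (250 bases before to 50 after a start, GRCm38.p6), and they are given here because Tsc22d3 was the member that responded to Dex and because its counts were summed over all starts. The starts lie up to 57854 bases apart, and gene counts do not show which of them gave the RNA. In the windows, capitals mark matches to a single GRE arm (AGAACA, which reads TGTTCT on the opposite strand) or to TGACG, the core of the cyclic AMP response element.
Tsc22d3 start 1, chrX:140600473-140600772, minus strand: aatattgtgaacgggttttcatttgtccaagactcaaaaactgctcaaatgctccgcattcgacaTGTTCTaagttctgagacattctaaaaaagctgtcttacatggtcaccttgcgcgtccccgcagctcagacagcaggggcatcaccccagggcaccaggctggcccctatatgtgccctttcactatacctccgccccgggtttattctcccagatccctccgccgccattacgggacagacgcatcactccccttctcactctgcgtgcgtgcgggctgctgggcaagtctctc
Tsc22d3 start 2, chrX:140548522-140548821, minus strand: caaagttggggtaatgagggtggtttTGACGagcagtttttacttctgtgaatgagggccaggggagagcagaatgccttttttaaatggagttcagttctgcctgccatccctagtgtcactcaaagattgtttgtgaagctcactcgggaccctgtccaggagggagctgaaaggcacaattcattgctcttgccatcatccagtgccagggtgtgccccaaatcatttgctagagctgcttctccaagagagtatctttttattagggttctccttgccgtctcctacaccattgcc
Tsc22d3 start 3, chrX:140542619-140542918, minus strand: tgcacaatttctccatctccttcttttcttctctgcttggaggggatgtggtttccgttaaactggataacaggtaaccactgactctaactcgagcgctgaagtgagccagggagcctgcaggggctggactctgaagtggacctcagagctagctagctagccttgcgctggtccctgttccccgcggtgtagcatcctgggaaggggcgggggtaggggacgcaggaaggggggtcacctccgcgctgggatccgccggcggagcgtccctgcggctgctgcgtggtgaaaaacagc

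The complete glucocorticoid response element (GRE), searched as the arm AGAACA followed after any 3 bases by the arm TGTTCT, was found in none of the 3 windows on either strand, nor were the forkhead site TGTTTAC and the complete cyclic AMP element TGACGTCA. The arm AGAACA was present once, in the first window at position -185 from the start on the strand opposite to the gene, and TGACG once, at position -224 of the second window. Among the 32851 RefSeq start windows of the mouse, 0.00913% held the complete GRE, 19.0% the arm, 3.65% the forkhead site, 1.79% the complete cyclic AMP element and 20.8% its core. The matches are letters in a window and not tested sites. For Tsc22d1, 5 start windows were available, of which the fourth holds the arm and the fifth the core TGACG.

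Library totals ranged from 16452539 to 23117080 counts, which gave each member between 373 and 11606 counts in a library. GRwt/wt vehicle replicate 1 stood apart, with a highest Spearman correlation of 0.916 to any other library against at least 0.973 for the other 22. GRwt/wt vehicle replicate 3 contained macrophage transcripts, with a sum of 4408 CPM over 10 macrophage markers, against 9.14 to 1490 CPM in all other libraries. CPM stands for a gene's counts per 1000000 counts of the library, after TMM scaling for composition. Markers of fibroblasts summed to between 32729 and 57196 CPM in all libraries, and those of epithelium, endothelium and erythroid cells to at most 20.8 CPM. Markers of skeletal muscle reached 218 CPM in GRwt/wt vehicle replicate 1. In the GRwt/wt vehicle group the muscle marker Des reached 210 CPM, while Myod1, Myog, Actc1 and Myh3 stayed at no more than 0.498 CPM. Neural and glial markers reached 239 CPM in GRwt/wt Dex replicate 3, and the neural marker Map2 alone reached 199 CPM in the GRwt/wt Dex group. In bulk RNA, fewer cells of a type and less RNA per cell cannot be told apart. Both unusual GRwt/wt libraries were kept, and values without 1 or both of them are given for the Tsc22d genes and for called genes of the lists whose call they change.

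Tsc22d3 rose with Dex in GRwt/wt cells, and its change passed the test in none of the mutants. In GRwt/wt the level was 63.3, 47.3 and 51.8 CPM in the vehicle libraries and 212, 166 and 235 CPM in the Dex libraries. The groups did not overlap, since the lowest Dex library was above the highest vehicle library. The mean rose from 54.2 ± 8.26 CPM (SD, n = 3) to 205 ± 35.0 CPM (SD, n = 3), a 3.78-fold rise with a log2 fold change (LFC) of 1.92 (SE 0.27, 95% interval 1.35 to 2.49, adjusted p 0.00272, edgeR quasi-likelihood test). A gene was called when its adjusted p was at most 0.05 and its absolute LFC at least 1. By this rule 25 of the 15748 genes tested (0.159%) were called with Dex in GRwt/wt, all of them higher, and Tsc22d3 was the only Tsc22d gene among them. It ranked 9th by p-value among all genes and 9th by LFC among the called ones. Without GRwt/wt vehicle replicates 1 and 3 the LFC was 2.1 (adjusted p 0.0442). Here and below, leaving out both leaves 1 GRwt/wt vehicle library, which the model assumes to vary like the other groups. When no other genotype entered the model it was 1.93 with an adjusted p of 0.456.

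**Figure D1:**
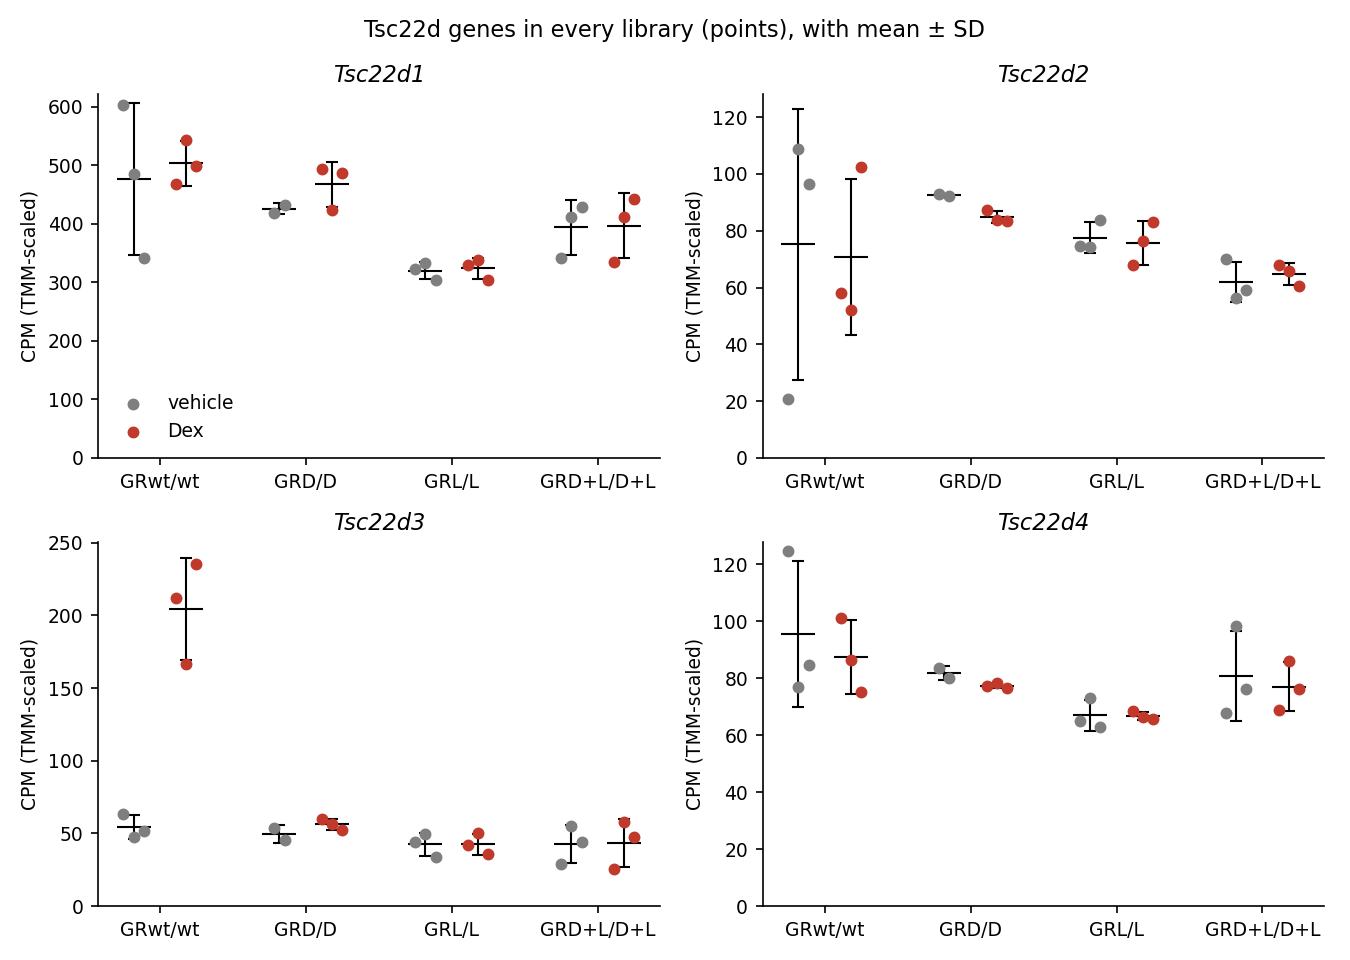
Level of each Tsc22d gene in CPM after TMM scaling (y axis, from 0) in every library (points), by genotype (x axis) and treatment (grey vehicle, red Dex), with the mean and SD of each group in black. Tsc22d3 stands at 166 to 235 CPM in the 3 GRwt/wt Dex libraries and at no more than 63.3 CPM in any other library, while the other members show no such step.

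In GRD/D cells Tsc22d3 was at 54.1 and 45.3 CPM in vehicle and at 59.9, 56.8 and 52.4 CPM with Dex. The ranges overlapped, and the LFC was 0.18 (SE 0.30, 95% interval -0.44 to 0.80, adjusted p 1). GRL/L cells had 43.8, 49.9 and 33.7 CPM in vehicle and 42.0, 50.1 and 35.6 CPM with Dex. Here too the ranges overlapped, with an LFC of 0.0033 (SE 0.26, 95% interval -0.55 to 0.56, adjusted p 1). GRD+L/D+L cells had 28.9, 55.2 and 44.0 CPM in vehicle and 25.2, 57.6 and 47.2 CPM with Dex, with an LFC of 0.023 (SE 0.26, 95% interval -0.53 to 0.58, adjusted p 1). Vehicle and Dex libraries thus overlapped in every mutant. In each mutant edgeR called 0 genes (0%) with Dex, while an unadjusted p under 0.05 was reached by 154, 43 and 54 genes. The upper limits of the intervals in the mutants, 0.80, 0.56 and 0.58, lay below 1.35, the lower limit in GRwt/wt.

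The difference between the responses was tested directly. The Dex response of Tsc22d3 differed from that in GRwt/wt by an LFC of -1.74 for GRD/D (SE 0.39, 95% interval -2.56 to -0.91). The difference was -1.91 for GRL/L (SE 0.38, interval -2.70 to -1.13), and it was -1.89 for the double mutant (SE 0.38, interval -2.68 to -1.10). In this order, none passed adjustment over all genes in edgeR (adjusted p 0.688, 0.175 and 0.176, unadjusted p from the same model 0.000345, 7.97e-05 and 8.92e-05), although Tsc22d3 ranked 7th, 7th and 8th by p-value among the 15748 genes. The background was 0 called genes for GRD/D (0%) and 4 for each of the other mutants (0.0254%). The difference was called in all 3 mutants by DESeq2 (adjusted p 0.0205, 0.000782 and 0.000861). It was also called in all 3 by edgeR with a term for equally numbered libraries, which may join different cultures in GRwt/wt. All 3 differences share the GRwt/wt libraries. Without GRwt/wt vehicle replicates 1 and 3 they were -1.92, -2.10 and -2.08 (adjusted p 0.266, 0.19 and 0.171).

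Set against GRwt/wt cells under Dex, Tsc22d3 was lower in every mutant. In GRD/D the LFC was -1.86 (SE 0.27), which is 0.275 times the GRwt/wt level. GRL/L reached -2.26 (SE 0.27) or 0.208 times that level, and the double mutant -2.24 (SE 0.27) or 0.212 times. All were called by edgeR, with adjusted p of 0.0051, 0.000331 and 0.00029. The 17 mutant libraries spanned 25.2 to 59.9 CPM, all below the lowest GRwt/wt Dex library. In these comparisons 40 genes (0.254%), 408 genes (2.59%) and 433 genes (2.75%) were called. The GRD/D call was lost without GRD/D Dex replicate 3 (-1.81, adjusted p 0.0663), and that of GRD+L/D+L in a fit of its own Dex libraries and those of GRwt/wt alone (-2.23, adjusted p 0.0665).

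In vehicle the levels of Tsc22d3 overlapped between genotypes. The LFC against GRwt/wt was -0.12 for GRD/D, -0.35 for GRL/L and -0.34 for the double mutant, with adjusted p of 0.838, 0.342 and 0.357. In the same order, 1 gene (0.00635%), 1225 genes (7.78%) and 1311 genes (8.32%) were called. The intervals of the differences were -0.75 to 0.50, -0.90 to 0.20 and -0.90 to 0.21. Without GRwt/wt vehicle replicates 1 and 3 the values were 0.047, -0.18 and -0.17 (adjusted p 0.973, 0.766 and 0.792), so the sign turned for GRD/D. Ordered by mean, GRwt/wt Dex came first at 205 CPM, followed by GRD/D Dex at 56.4 ± 3.74, GRwt/wt vehicle at 54.2 ± 8.26, GRD/D vehicle at 49.7 ± 6.25, GRD+L/D+L Dex at 43.4 ± 16.6, GRD+L/D+L vehicle at 42.7 ± 13.2, GRL/L Dex at 42.6 ± 7.26 and GRL/L vehicle at 42.5 ± 8.19 CPM. Apart from the first step, each neighbouring pair in this order differed by less than the SD of at least 1 of its groups.

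**Figure D2:**
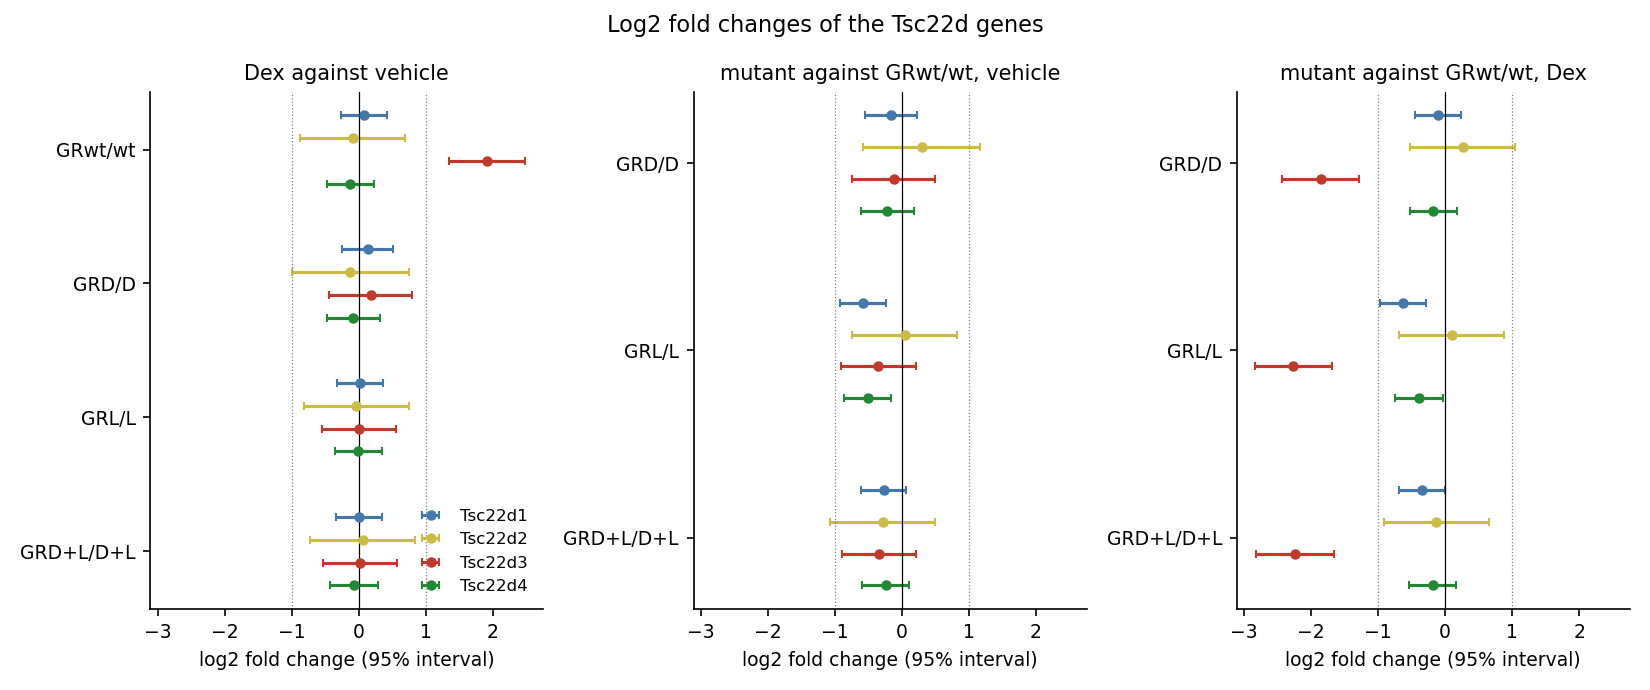
LFC of the Tsc22d genes (points, coloured by gene) with 95% intervals (bars), for Dex against vehicle in each genotype (left), each mutant against GRwt/wt in vehicle (middle) and each mutant against GRwt/wt with Dex (right). Dotted lines mark an absolute LFC of 1; only Tsc22d3 lies beyond them, at 1.92 for Dex in GRwt/wt and between -2.26 and -1.86 for the mutants under Dex.

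The rise of Tsc22d3 was set beside 19 further glucocorticoid-induced genes. The list was taken from an earlier analysis of these libraries, so its counts and medians with Dex are a description and not independent evidence of its direction. All 19 were tested and had an LFC above 0 with Dex in GRwt/wt, with a median of 1.34 against -0.0093 for all genes, and 4 were called (background 0.159%). These were Fkbp5, which encodes a chaperone of the receptor (LFC 3.49), the clock gene Per1 (1.85), the transcription factor gene Zbtb16 and Hif3a, which inhibits the hypoxia response. Zbtb16 and Hif3a were at no more than 0.317 and 0.215 CPM in any GRwt/wt vehicle library, too close to 0 for a fold, and reached 10.1 ± 7.04 and 5.41 ± 3.36 CPM with Dex (SD, n = 3). Without GRwt/wt vehicle replicates 1 and 3 Zbtb16 and Hif3a were no longer called (adjusted p 0.0517 and 0.166), whereas Fkbp5 and Per1 were. Per1 had nearly the same LFC as Tsc22d3. In vehicle Angptl4 was called higher in GRL/L (background 7.78%), while the double mutant had Pdk4 called higher and Crispld2 lower (background 8.32%), and these 3 calls were lost without both libraries (adjusted p 0.118, 0.159 and 0.166). Under Dex, against GRwt/wt, 4 of the 19 genes were called for GRD/D (background 0.254%), 13 for GRL/L (2.59%) and 12 for the double mutant (2.75%), all lower, with medians of -1.03, -1.39 and -1.55 against -0.0046, -0.021 and -0.026 for all genes. Fkbp5 and Per1 were also called in the difference of responses, with LFC of -3.37 and -1.71 for GRL/L and of -3.42 and -1.91 for the double mutant. For GRD/D the difference was not called for any gene in edgeR (1119 genes had an unadjusted p under 0.05), and Fkbp5 stood there at 102 ± 13.7 CPM with Dex (n = 3) against 31.9 ± 1.01 CPM in vehicle (n = 2), and Per1 at 41.9 ± 3.58 against 16.5 ± 0.40 CPM. Tsc22d3 was at 56.4 against 49.7 CPM in the same groups.

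**Figure D3:**
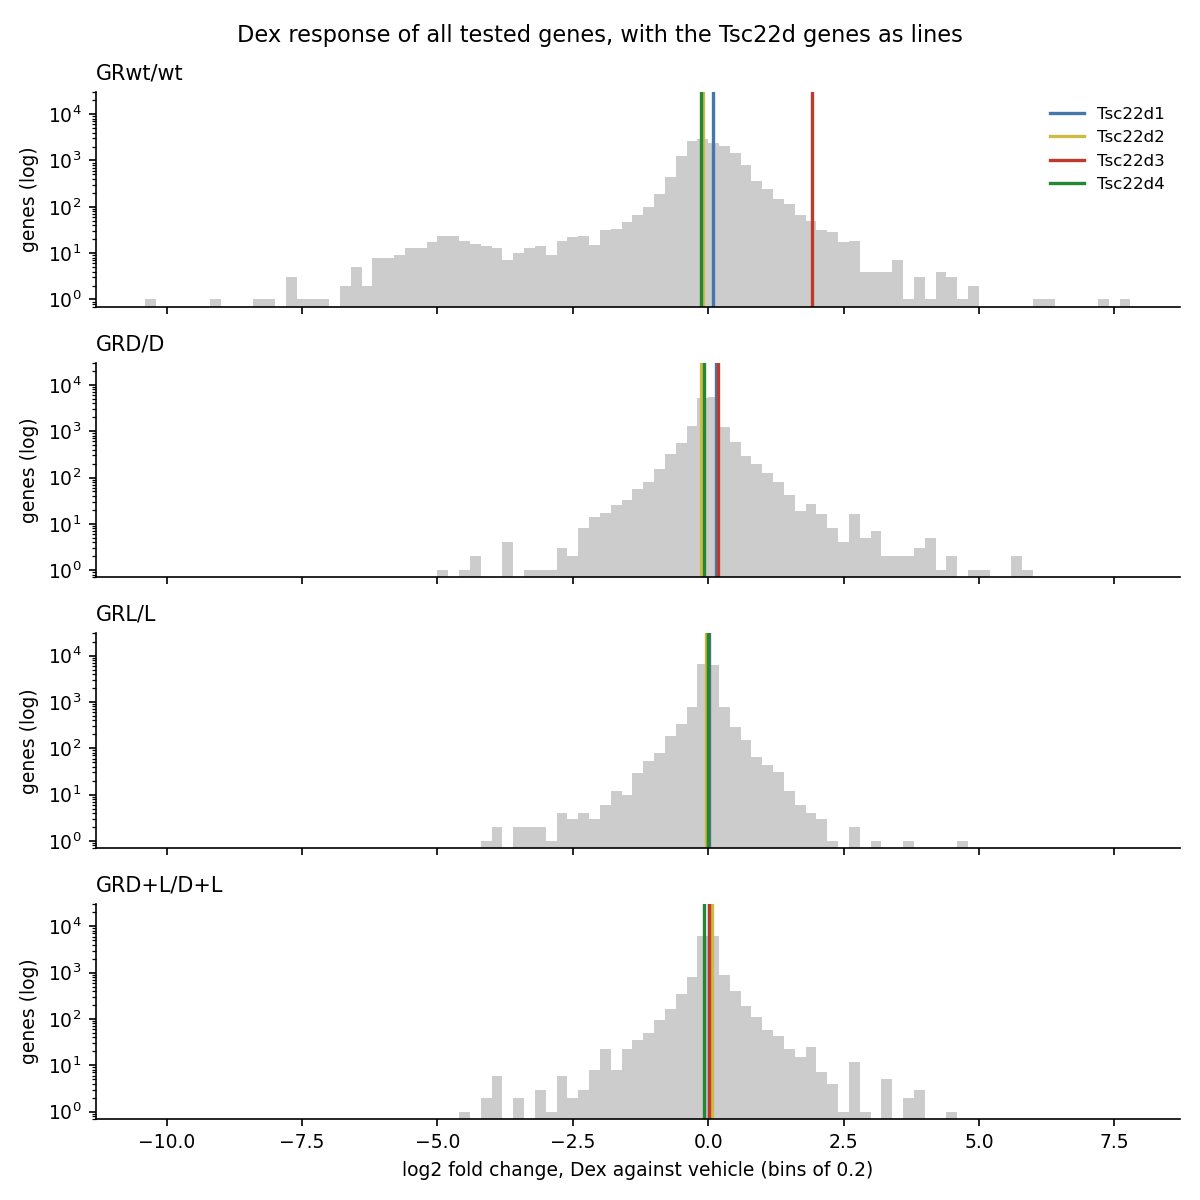
Number of genes (y axis, log scale) by LFC of Dex against vehicle (x axis, bins of 0.2 LFC) for the 15748 genes tested in each genotype, with the Tsc22d genes as coloured lines. Tsc22d3 stands at 1.92 in GRwt/wt, where 150 genes have a larger LFC, and at 0.18, 0.0033 and 0.023 in the mutants, inside the bulk of the genes.

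Of 10919 genes with a mean of at least 5 CPM, the 5 whose 8 group means followed those of Tsc22d3 most closely were Klf13 (Pearson r 0.987), Sphk1 (0.984), Cdv3 (0.975), Cpne8 (0.969) and P2rx5 (0.968). Klf13 encodes a Kruppel-like transcription factor and Sphk1 a sphingosine kinase. Over the 23 single libraries r was 0.704, 0.645, 0.436, 0.136 and 0.782 for these genes, so the likeness rested on the group means, most of all for Cpne8. The points share libraries and the single high GRwt/wt Dex group, and r is given as a description. For Tsc22d1 the 5 were Rab32 (0.996), 2310022B05Rik (0.992), Lims2 (0.986), Bzw2 (0.985) and Btf3 (0.984), for Tsc22d2 Rida (0.969), Aldh1l2 (0.963), Adam23 (0.953), Filip1l (0.951) and Ccl8 (0.951), and for Tsc22d4 Ppp1r13l (0.993), Trappc5 (0.99), Eno3 (0.988), Cd99l2 (0.987) and Ift46 (0.986). Over the 23 single libraries r was lower here too. It ran from 0.429 (Bzw2) to 0.784 (Lims2) for the genes of Tsc22d1 and from 0.383 (Adam23) to 0.881 (Filip1l) for those of Tsc22d2. For those of Tsc22d4 it ran from 0.697 (Cd99l2) to 0.817 (Trappc5). No gene was in the list of more than 1 member.

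Tsc22d1 had the highest CPM of the family in every library, and its change with Dex did not pass the test. In GRwt/wt it was at 602, 485 and 342 CPM in vehicle and at 467, 544 and 499 CPM with Dex, with an LFC of 0.080 (SE 0.16, 95% interval -0.26 to 0.42, adjusted p 0.833). The vehicle libraries spread more widely than the Dex libraries, and both extremes were the unusual replicates 1 and 3. Without both of them the LFC with Dex was 0.041 (adjusted p 0.963), without replicate 1 alone 0.29 (adjusted p 0.383) and without replicate 3 alone -0.066 (adjusted p 0.783). GRL/L cells had the lowest levels, with 323, 333 and 305 CPM in vehicle and 329, 339 and 304 CPM with Dex. All 6 lay below all 6 GRwt/wt libraries, but how many of all genes separate in this way was not counted. The nearest values were 339 CPM in GRL/L and 342 CPM in GRwt/wt vehicle replicate 3. Against GRwt/wt the LFC in GRL/L was -0.57 in vehicle (SE 0.16, adjusted p 0.0175) and -0.64 with Dex (SE 0.16, adjusted p 0.0305). Both passed the adjusted p of edgeR but not the fold threshold. In these comparisons 3628 genes (23%) and 862 genes (5.47%) passed the adjusted p alone, so in vehicle such a difference was common.

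The size of the GRL/L difference of Tsc22d1 moved most with 1 library in vehicle and little under Dex. In vehicle the LFC was -0.37 (adjusted p 0.0689) without GRwt/wt vehicle replicate 1, -0.72 (adjusted p 0.000978) without replicate 3 and -0.62 (adjusted p 0.00658) without both. The adjusted p also exceeded 0.05 without GRL/L vehicle replicate 1 (0.0517) or 3 (0.0631). With Dex the LFC stayed between -0.69 and -0.58 whichever single library was left out, while its adjusted p exceeded 0.05 without any single GRL/L library (0.0882 to 0.111) or without GRwt/wt Dex replicate 2 (0.0692) or 3 (0.0908). The differences in vehicle and with Dex come from separate libraries. Equally numbered GRL/L libraries may share a culture, however, so these differences may not be independent of each other. The sum of macrophage markers was 272 to 681 CPM in the GRL/L libraries and 18.4 to 93.1 CPM in the GRwt/wt Dex libraries, and its part in the difference was not tested. In GRD/D the levels of Tsc22d1 were 419 and 432 CPM in vehicle and 494, 424 and 486 CPM with Dex, and those of the double mutant were 341, 412 and 429 CPM and 335, 412 and 443 CPM. Over both treatments both genotypes overlapped with GRwt/wt. Under Dex alone the highest double mutant library (443 CPM) was below the lowest GRwt/wt library (467 CPM), and how many of all genes separate in this way was not counted. The LFC of GRD+L/D+L against GRwt/wt was -0.27 in vehicle (adjusted p 0.232) and -0.34 with Dex (adjusted p 0.235). The vehicle value was -0.050 (adjusted p 0.838) without GRwt/wt vehicle replicate 1 and -0.41 (adjusted p 0.0356) without replicate 3. The Dex value does not use these vehicle libraries. It ranged from -0.43 to -0.23 (adjusted p in edgeR 0.0737 to 0.447) without single libraries of any group.

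Tsc22d2 was called in no comparison, and its values against GRwt/wt in vehicle moved with each GRwt/wt vehicle library. It was at 20.6, 109 and 96.6 CPM in GRwt/wt vehicle and at 57.9, 52.2 and 102 CPM with Dex, and at 56.5 to 92.8 CPM in the 17 mutant libraries. The value of 20.6 CPM, the lowest of all 23 libraries, came from GRwt/wt vehicle replicate 1, the library that stood apart. The LFC with Dex in GRwt/wt was -0.088 (SE 0.37, 95% interval -0.87 to 0.69, adjusted p 0.923), and without vehicle replicates 1 and 3 it was -0.63 (adjusted p 0.368). The LFC in vehicle against GRwt/wt was 0.30 for GRD/D (SE 0.41, adjusted p 0.715), 0.044 for GRL/L (SE 0.37, adjusted p 0.941) and -0.28 for the double mutant (SE 0.37, adjusted p 0.606). The double mutant had 70.0, 56.5 and 59.3 CPM in vehicle, all below the other GRwt/wt vehicle libraries and above replicate 1. Without replicate 1 its LFC was -0.71 (adjusted p 0.0157), with voom quality weights, which gave that library the lowest weight, -0.78 (adjusted p 0.0234), and without replicates 1 and 3 -0.83 (adjusted p 0.0272). These 3 values passed the adjusted p but not the fold threshold. Without replicate 1 the LFC turned to -0.14 for GRD/D (adjusted p 0.875) and to -0.40 for GRL/L (adjusted p 0.151). Without replicate 2 the values moved the other way, to 0.65 for GRD/D, 0.40 for GRL/L and 0.076 for the double mutant (adjusted p 0.352, 0.45 and 0.898). The interval of the Dex response in GRwt/wt does not exclude changes of up to 0.69 in either direction. Within mutant groups the spread was small, for example 92.4 ± 0.491 CPM in GRD/D vehicle (SD, n = 2) and 84.8 ± 2.16 CPM in GRD/D Dex (SD, n = 3).

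Tsc22d4 was at 125, 76.8 and 84.8 CPM in GRwt/wt vehicle and at 101, 86.4 and 75.2 CPM with Dex, with an LFC of -0.12 (SE 0.17, 95% interval -0.48 to 0.23, adjusted p 0.746). The groups overlapped, and the highest level of all 23 libraries was in GRwt/wt vehicle replicate 1. Without that library the LFC was 0.12 (adjusted p 0.784), and without replicates 1 and 3 it was 0.18 (adjusted p 0.8). As for Tsc22d1, GRL/L cells had the lowest levels, with 65.0, 73.2 and 62.7 CPM in vehicle and 68.4, 66.5 and 65.7 CPM with Dex. All 6 GRL/L libraries were below all 6 GRwt/wt libraries, but how many of all genes separate in this way was not counted. The LFC against GRwt/wt was -0.51 in vehicle (SE 0.17, adjusted p 0.0363) and -0.39 with Dex (SE 0.17, adjusted p 0.177), neither of them past the fold threshold. Without GRwt/wt vehicle replicate 1 the vehicle difference was -0.27 (adjusted p 0.165), and without replicates 1 and 3 it was -0.22 (adjusted p 0.386). The comparison under Dex does not use the vehicle libraries, so leaving these out could hardly move its LFC. Without single libraries of any group that LFC ranged from -0.49 to -0.28 (adjusted p in edgeR 0.0347 to 0.439). Without any single GRL/L vehicle library the adjusted p of the vehicle difference was 0.0546 to 0.112. GRD/D had 76.5 to 83.7 CPM and GRD+L/D+L 67.7 to 98.4 CPM over both treatments. In the mutants the Dex response of Tsc22d1, Tsc22d2 and Tsc22d4 lay between -0.12 and 0.14 in all 9 tests, with an adjusted p of 1 in each, and the difference of their response from GRwt/wt lay between -0.071 and 0.15 (smallest adjusted p 0.937). This last range moved with the GRwt/wt libraries, to -0.28 to 0.59 without vehicle replicate 1 (smallest adjusted p 0.575), -0.40 to 0.27 without vehicle replicate 2, -0.29 to 0.20 without vehicle replicate 3, -0.077 to 0.52 without Dex replicate 3 and -0.26 to 0.69 without vehicle replicates 1 and 3 (smallest adjusted p 0.662), with 0 called each time.

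Levels of different genes were compared per kb of merged exons, without knowing how much of the annotated length was transcribed. On this scale Tsc22d1 was the highest member in every group, with 53.0 ± 14.5 CPM per kb in GRwt/wt vehicle and 56.0 ± 4.26 with Dex (SD, n = 3 each). Tsc22d3 moved from 12.5 ± 1.90 to 47.1 ± 8.07 CPM per kb and thus came close to Tsc22d1. Tsc22d4 was at 12.7 ± 3.41 and 11.7 ± 1.72 CPM per kb, and Tsc22d2 was lowest at 6.69 ± 4.25 and 6.30 ± 2.45. As a share of the summed level of the family, Tsc22d3 was 14.7% in GRwt/wt vehicle and 38.9% in GRwt/wt Dex, against 14.1% to 16% in the 6 mutant groups. Tsc22d1 held 62.4% and 46.2% in GRwt/wt and 58.2% to 62.9% in the mutant groups. Exon length was taken over all annotated transcripts, so a gene that used only short transcripts would be understated.

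**Figure D4:**
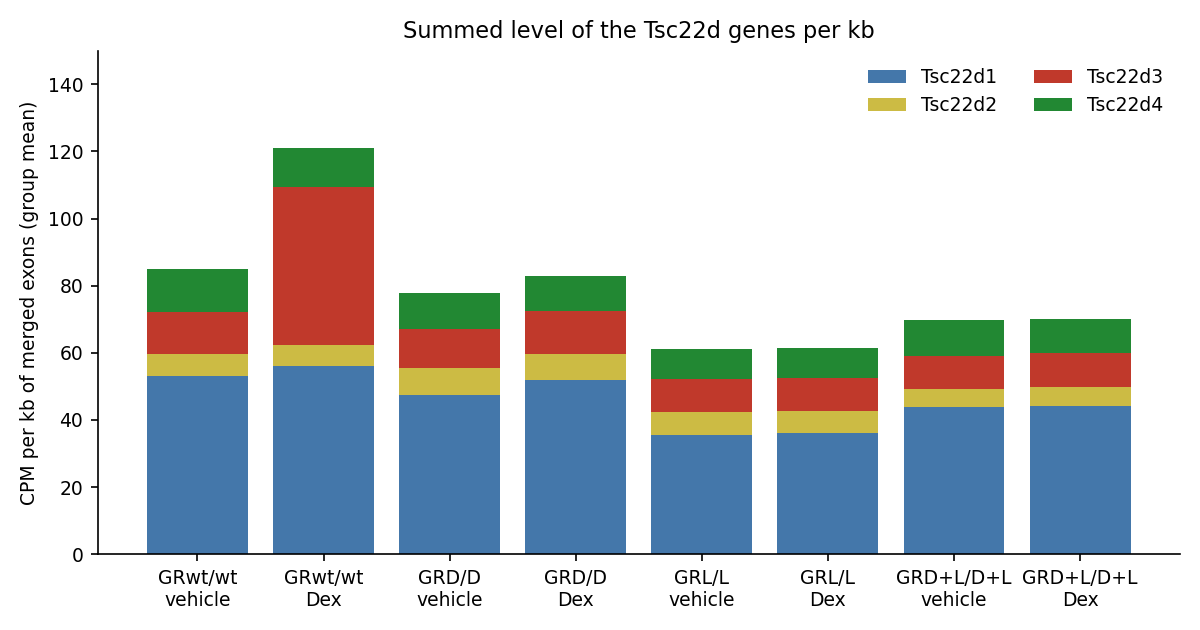
Mean level of the Tsc22d genes in CPM per kb of merged exons (stacked bars from 0, coloured by gene) in each of the 8 groups (x axis). The Tsc22d3 part is 47.1 CPM per kb in GRwt/wt Dex and between 9.79 and 13.0 CPM per kb in the other groups, while Tsc22d1 is the largest part in all groups.

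Receptors and factors known to induce Tsc22d3 were examined as a list of 8 genes, all tested. None was called with Dex in GRwt/wt, which is near the background of 0.159% for a list of this size, with a median LFC of 0.45 against -0.0093 for all genes. Foxo3, a forkhead factor that induces Tsc22d3, rose with an LFC of 0.86 (SE 0.14, adjusted p 0.00938), from 114 ± 18.9 to 207 ± 32.5 CPM (SD, n = 3 each), and did not reach the fold threshold. Foxo3 had mean levels of 114 to 147 CPM in the 6 mutant groups, and under Dex its LFC against GRwt/wt was -0.76 for GRD/D (adjusted p 0.0268), -0.77 for GRL/L (adjusted p 0.00462) and -0.50 for the double mutant (adjusted p 0.0452). The progesterone receptor gene Pgr had an LFC of 1.51 (adjusted p 0.415) and Foxo1 of 0.61 (adjusted p 0.176). Nr3c1, the gene of GR, was not called with Dex (LFC 0.29, adjusted p 0.833). In vehicle, Pgr was called higher in GRL/L (LFC 2.74, adjusted p 0.0315, background 7.78%), and Nr3c1 was called higher for the double mutant (1.90, adjusted p 0.037, background 8.32%). Nr3c1 was at 4.08 CPM in GRwt/wt vehicle replicate 1 against 73.0 and 88.0 CPM in the other GRwt/wt vehicle libraries, and this low value enters the vehicle comparison. Without that library Nr3c1 was still called (1.36, adjusted p 0.00575), while the call of Pgr was lost (2.60, adjusted p 0.0757).

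Genes for partners of the proteins were examined as lists of their own. Of 10 genes for proteins that GILZ is known to bind, all tested, 0 were called with Dex in GRwt/wt (median LFC 0.011, range -0.43 to 0.28), and 0 under Dex in any mutant against GRwt/wt (backgrounds 0.254%, 2.59% and 2.75%). With a background of 0.159% called with Dex in GRwt/wt, a count of 0 in a list of this size is near the background, and the same holds for the other lists of this length below. The lowest value was that of Hras (-0.43, adjusted p 0.281), a Ras gene, and the highest that of Fos, a subunit of AP-1 (0.28, adjusted p 0.695). Hras was called in vehicle in GRL/L (LFC -1.17, SE 0.19, adjusted p 0.000678, background 7.78%), and without GRwt/wt vehicle replicate 1 it fell short of the fold threshold (-0.91, adjusted p 0.00099). Of 12 genes of the WNK and NRBP system, 11 were tested and 0 were called in any of the 13 comparisons. The background was highest in vehicle, at 7.78% for GRL/L and 8.32% for the double mutant, followed by 2.59% and 2.75% under Dex, and at most 0.254% in each of the other comparisons, so nothing is read from these counts. With Dex in GRwt/wt their median LFC was 0.35, with the largest values in Slc12a2, an ion cotransporter gene (1.11, adjusted p 0.333), the kinase gene Wnk1 (0.73, adjusted p 0.437) and Oxsr1, a kinase activated by WNK (0.56, adjusted p 0.0694). Oxsr1 passed the adjusted p but not the fold threshold in vehicle in GRL/L (0.45, adjusted p 0.0121) and in the double mutant (0.58, adjusted p 0.00371), and Nrbp2 did so in GRL/L (0.80, adjusted p 0.0371).

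Among 12 genes of TGF-beta signalling, the pathway for which Tsc22d1 was named, 0 were called with Dex in GRwt/wt (median LFC 0.23). Ccn2, a gene induced by TGF-beta that encodes a matricellular protein, was called lower in GRL/L in vehicle (LFC -1.53, SE 0.33, adjusted p 0.00323, background 7.78%) and with Dex (-2.14, SE 0.33, adjusted p 0.0021, background 2.59%), and for the double mutant with Dex (-1.62, SE 0.33, adjusted p 0.0106, background 2.75%). The ligands Tgfb1 and Tgfb3 had LFC of -0.74 each in GRL/L vehicle without passing the test (adjusted p 0.0562 and 0.094), and the receptor gene Tgfbr1 had 1.01 (adjusted p 0.208). Over the whole list the median LFC in GRL/L was -0.11 in vehicle and -0.016 with Dex, against -0.048 and -0.021 for all genes.

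None of the tested neighbours of the members was called with Dex in GRwt/wt, which with a background of 0.159% is near that of all genes. Within 250 kb of a member, 3 of 12 annotated neighbours of Tsc22d3 were tested, and none was called in any comparison (background at most 8.32%). Prps1, which encodes phosphoribosyl pyrophosphate synthetase, lies 63388 bases away and had an LFC of 0.16 with Dex in GRwt/wt (SE 0.13, adjusted p 0.592), and the values of Mid2 and Frmpd3 were 0.59 (SE 0.52, adjusted p 0.619) and -0.19 (SE 0.98, adjusted p 0.938). Of the neighbours tested around the other members, 1 was near Tsc22d1, 4 near Tsc22d2 and 19 near Tsc22d4. Near Tsc22d4, Tfr2, a transferrin receptor gene, was called lower in GRD+L/D+L vehicle (LFC -2.45, SE 0.81, adjusted p 0.0403, background 8.32%), a call lost without GRwt/wt vehicle replicate 3 (-2.01, adjusted p 0.0965), and the noncoding gene Gm8066 was called higher in GRL/L in vehicle (1.67, adjusted p 0.0251, background 7.78%) and with Dex (3.02, adjusted p 0.00496, background 2.59%) and for the double mutant with Dex (2.71, adjusted p 0.0113, background 2.75%).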

How the data were processed

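RNA-seq was performed on 23 libraries of MEF cells. The authors prepared TruSeq libraries, mapped reads to mm10 (GRCm38) with HISAT2 2.1.0, kept uniquely mapped reads and deposited raw counts per Ensembl gene from featureCounts 2.0.0 (versions per the submitters' processing notes); annotation release and strandedness are not given in the sources used here. Of 55487 identifiers, 55227 matched GENCODE M21. Counts were tested by edgeR 4.0.16 (quasi-likelihood, R 4.3.3) in a single model of 8 group means, with TMM scaling, filterByExpr (15748 genes) and Benjamini-Hochberg adjustment over all genes. Each SE is the LFC divided by the root of its F value. The code was tested on simulated counts. p-values measure the spread between cultures. The Tsc22d genes, all lists and the rule for named genes (called list genes, those with the largest LFC, the 5 most alike patterns and neighbours within 250 kb) were chosen with earlier results of these data known, and the glucocorticoid list came from such an analysis. Promoter sequences are from RefSeq (GRCm38.p6), matched by symbol for Tsc22d1 and Tsc22d3. Some genes of the lists are counted in their list but not reported here by name.

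Alternatives were RLE scaling, no filter, at least 10 counts in every library, DESeq2 1.42.0, limma 3.58.1 voom with quality weights, only the groups compared, a replicate block, and leaving out libraries. Sex of the culture as a covariate, and called list genes without GRwt/wt vehicle replicates 1 and 3, were added after seeing the data. The study used 3 cultures per genotype from different mice, so vehicle and Dex libraries may share cultures. Deviations of equally numbered libraries correlated by 0.322 to 0.644 in GRL/L and 0.652 to 0.887 in GRD+L/D+L. The values were 0.548, 0.0266 and -0.0265 for numbers 1, 2 and 3 in GRwt/wt, and -0.199 to 0.283 in GRD/D. Throughout a genotype the numbers thus marked pairs only in GRL/L and the double mutant, and in GRwt/wt at most for number 1.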

Additional observations from a re-analysis of the deposited data

How the results depend on the processing

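Tsc22d3 was called with Dex in GRwt/wt, and lower under Dex in each mutant than in GRwt/wt, with RLE scaling, no filter, at least 10 counts in every library, DESeq2, voom quality weights, the replicate block, the sex covariate and without GRwt/wt vehicle libraries 1 and 3, which leaves 1 library in that group, assumed to vary like the other groups. The comparisons under Dex do not use the vehicle libraries that were left out. In edgeR fits of only the groups compared the LFC was 1.93 (adjusted p 0.456) with Dex in GRwt/wt. For GRD+L/D+L under Dex it was -2.23 (adjusted p 0.0665). These fits hold 6 libraries. The difference of the Dex response became called with DESeq2 (-1.77 for GRD/D, -1.95 for GRL/L, -1.92 for the double mutant), with the replicate block (-1.68, -1.91 and -1.92) and, for GRL/L and the double mutant, with voom quality weights (-2.15 and -2.03), and the cause was not tested. Over the 9 settings other than single libraries left out, its adjusted p ranged from 0.01 to 1 for GRD/D, 0.000782 to 0.23 for GRL/L and 0.000861 to 1 for the double mutant. Equal numbers did not mark pairs throughout GRwt/wt (correlations -0.0265 to 0.548), which enters all 3 differences, so the block may join different cultures there. In GRD/D the libraries numbered 2 differed in sex, so the block joined different cultures there. Its calls carry these limits. The block changed no other call of a Tsc22d gene.

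Signs turned only for values that no fit called, and the cause was not tested. With voom quality weights the Dex LFC was -0.0266 for Tsc22d3 in GRL/L and 0.0394 for Tsc22d4 in GRwt/wt, and in vehicle Tsc22d3 was at 0.0211 in GRD/D and Tsc22d2 at -0.135 in GRD/D and -0.415 in GRL/L. With the replicate block it was -0.00779 for Tsc22d3 in GRD+L/D+L and 0.16 for Tsc22d2 in GRwt/wt. Without GRwt/wt vehicle libraries 1 and 3 it was 0.176 for Tsc22d4 in GRwt/wt, and in vehicle Tsc22d3 was at 0.0467 in GRD/D and Tsc22d2 at -0.256 in GRD/D and -0.504 in GRL/L. Leaving out single libraries, the Dex LFC of Tsc22d3 ranged from -0.139 to 0.135 in GRL/L and -0.236 to 0.296 in GRD+L/D+L, and in GRwt/wt that of Tsc22d1 from -0.0663 to 0.289, of Tsc22d2 from -0.532 to 0.276 and of Tsc22d4 from -0.274 to 0.115. Tsc22d2 in vehicle ranged from -0.144 to 0.647 in GRD/D, -0.401 to 0.399 in GRL/L and -0.712 to 0.0761 in GRD+L/D+L, each lowest without GRwt/wt vehicle replicate 1 and highest without replicate 2. Tsc22d3 in GRD/D ranged from -0.239 to 0.0262 in vehicle and from -1.99 to -1.75 under Dex, and its difference of responses in GRL/L from -2.06 to -1.78, called only without GRD+L/D+L Dex replicate 1 (adjusted p 0.0208).

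Over the same 9 settings the adjusted p of the GRL/L difference ranged from 0.00532 to 0.27 in vehicle and from 0.000199 to 0.0768 under Dex for Tsc22d1, and from 0.0215 to 0.386 in vehicle for Tsc22d4.

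The number of genes called moved widely. With Dex in GRwt/wt it was 25, 0 to 279 under the other settings and 14 (without Dex replicate 2) to 374 (without vehicle replicate 2) without single libraries. For the difference of responses it was 0 (0 to 11) for GRD/D, 4 (1 to 22) for GRL/L and 4 (0 to 19) for the double mutant under the other settings. In vehicle it was 1 (0 to 56), 1225 (0 to 1582) and 1311 (0 to 1708), and under Dex 40 (28 to 487), 408 (271 to 1193) and 433 (8 to 1523). Without single libraries the counts were 0 to 3, 1 to 9 and 2 to 11 for the differences, 0 to 376, 791 to 2674 and 586 to 2003 in vehicle, and 5 to 306, 148 to 952 and 94 to 959 under Dex. The highest came without GRwt/wt vehicle replicate 3 for GRD/D and for all vehicle counts, and without replicate 1 under Dex for GRL/L and the double mutant. Each member had at least 373 counts in each library, and counting error and the spread between cultures were not separated. GRwt/wt vehicle replicate 1 received a weight of 0.0224 from voom, the lowest of all libraries.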

Other observations

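Tsc22d3 lies on the X chromosome, and the cultures differed in sex, with Xist above Ddx3y in 7 libraries and the reverse in 16. In the groups that held both sexes and were not GRwt/wt Dex, Tsc22d3 was higher in the Xist libraries. The values were 63.3 against 47.3 and 51.8 CPM in GRwt/wt vehicle, 54.1 against 45.3 CPM in GRD/D vehicle, 56.8 and 59.9 against 52.4 CPM in GRD/D Dex, 49.9 against 33.7 and 43.8 CPM in GRL/L vehicle, and 50.1 against 35.6 and 42.0 CPM in GRL/L Dex. In GRwt/wt Dex the Xist library had 212 CPM, between the other 166 and 235 CPM. With sex as a term added after seeing the data, the LFC of Xist against Ddx3y libraries was 0.26 for Tsc22d3 (SE 0.15, adjusted p 0.446), 0.21 for the autosomal Tsc22d4 (SE 0.092, adjusted p 0.418), 0.083 for Tsc22d1 and -0.39 for Tsc22d2, none of them past the test in edgeR. Some of these libraries may share a culture. With this term the Dex LFC of Tsc22d3 in GRwt/wt was 1.93 (adjusted p 0.00221). GRD/D vehicle replicate 2 had Ddx3y and GRD/D Dex replicate 2 had Xist, so these equally numbered libraries differed in sex.

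In the GRD+L/D+L cultures the libraries numbered 1 had the lowest Tsc22d3 level of all, 28.9 CPM in vehicle and 25.2 CPM with Dex, against 44.0 to 57.6 CPM in the other GRD+L/D+L libraries. Nr3c1 was also lowest in them within this genotype, at 128 and 119 CPM against 228 to 265 CPM. Fibroblast markers summed to 32729 and 36333 CPM in these libraries against 45434 to 57196 CPM in the others of the genotype, and both had the highest sums of their groups for neural and glial markers (207 and 238 CPM) and macrophage markers (78.9 and 74.5 CPM). Map2 alone reached 174 CPM in the GRD+L/D+L vehicle group. The voom quality weights of the libraries numbered 1 were 0.289 and 0.281. The part of these in the low Tsc22d3 level was not tested.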
